A study of Nematostella vectensis with 123 samples.

Results

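The comparison covers 8 single embryos of Nematostella vectensis, the starlet sea anemone, whose label times lie between 18 and 24 h, out of 123 embryos in the series. They were chosen by label time alone. The later group held 4 embryos, numbered 33 to 36 and labelled 1280, 1320, 1360 and 1400 (21.3 to 23.3 h). The earlier group held 4 embryos, numbered 29 to 32 and labelled 1120, 1160, 1200 and 1240 (18.7 to 20.7 h). The labels state no unit, and the numbers were read as minutes because the protocol collected an embryo every 20 min. All 8 were unmanipulated embryos placed singly in drops of dilute sea water at the 4-cell stage and kept at 20 °C until they were frozen. Their label times were 40 min apart and the group means were 2.67 h apart. The study as a whole sampled single embryos from the 4-cell stage onward, with 1 embryo at each label time between 18 and 24 h. It used CEL-Seq, which reads the 3' end of polyadenylated RNA. The question addressed here is what changed between the first and the second 3 h within 18 to 24 h.

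In Nematostella, gastrulation turns a hollow blastula into an embryo with an outer ectoderm and an inner endodermal lining. A plate at the animal pole invaginates, and its rim becomes the mouth and pharynx. The plate forms the tissue usually called endomesoderm, and Wnt signalling is known to pattern the oral side of the embryo. None of the 40499 transcript model identifiers matched the reference gene table, so no marker gene of these tissues was used and the stage was not checked against markers. Models are given by identifier, without names or roles.

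The 8 libraries held 946697, 1602804, 535853 and 1402882 gene counts at 21 to 24 h (embryos 33 to 36), against 1676973, 1706574, 1541825 and 1368668 at 18 to 21 h (embryos 29 to 32). Embryo 35 was the shallowest and had 131 models at least 4-fold below all 7 others. Embryo 36 had 39 such models and a further 37 at least 4-fold above all 7 others. The remaining 6 embryos had 2 to 11 models below and 4 to 11 above. In embryo 32, 39.1% of all counts were assigned to no feature, against 8.03 to 10.8% in the other 7. As a check for a library entered more than once, the counts of all 28 pairs were compared, and the smallest chi-square was 7.64 per degree of freedom.

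No transcript model passed the threshold between the later and the earlier embryos. With edgeR, 0 of 14079 models tested (0%) met both conditions of a call, an adjusted p (Benjamini-Hochberg) under 0.05 and a change of 2-fold or more in either direction. The smallest adjusted p was 0.54. Unadjusted p-values under 0.05 were found for 786 models (5.58%), of which 464 were higher (3.3%) and 322 lower (2.29%) at 21 to 24 h. DESeq2 called 21 models (0.149%), 18 higher and 3 lower, limma-voom with quantile normalization called 0, and edgeR without a filter on low counts called 36 of 29677 (0.121%). Leaving out embryo 32 gave 0 calls, with 667 models at an unadjusted p under 0.05. Leaving out embryo 33 gave 1 call, Nv.T1.7596.1, which is described further on. Replacing the 2 groups by the label time of each embryo gave 0 calls among the same models (0%) and 1045 at an unadjusted p under 0.05 (7.42%). The labels do not say whether the embryos are from separate clutches, and p-values therefore cover only the spread between these 8.

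The fold changes were small for most models, and the embryos were precise enough to bound many of them. The median log2 fold change was 0.02 and the median absolute value 0.29. The standard error of a log2 fold change had a median of 0.40. The 95% interval lay inside a 2-fold change in either direction for 4571 models (32.5%) and inside a 4-fold change for 12536 (89.0%). Precision followed level up to 1000 CPM. Among 2118 models between 100 and 1000 CPM (counts scaled to 1000000 gene counts per embryo) the interval lay inside 2-fold for 1400 (66.1%), and among 1724 models under 10 CPM for 12. Among the 73 models at 1000 CPM and over it lay inside 2-fold for 48 (65.8%). Inside 4-fold it lay for 82.2% of these 73, against 95.6% between 100 and 1000 CPM. CPM used TMM-scaled totals over the 8 embryos for the step, TMM-scaled totals over the 26 embryos of 12 to 30 h for other windows and differences between steps, and plain totals for maxima compared across the series, so the scales differ slightly. The values of all 4 later embryos lay above those of all 4 earlier embryos for 215 models (1.53%) and below them for 231 (1.64%).

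**Figure D1:**
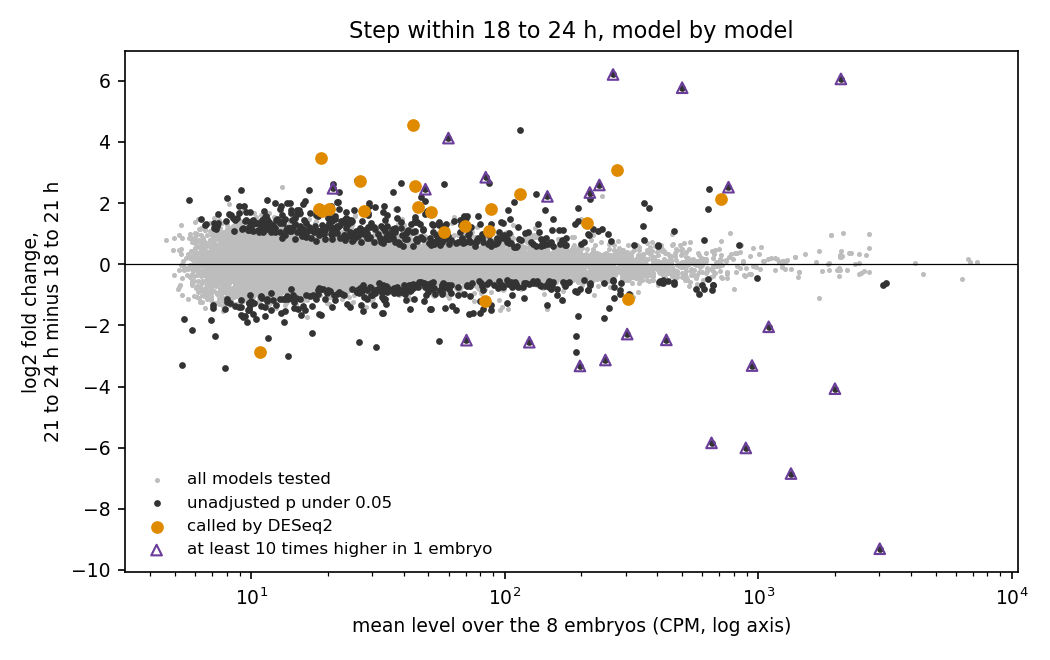
Log2 fold change of each of the 14079 models tested (vertical axis, 21 to 24 h minus 18 to 21 h) against its mean level over the 8 embryos in CPM on a log axis. Small grey points are all models, black points those with an unadjusted p under 0.05, orange points the 21 models called by DESeq2, and open triangles the 24 models at least 10 times higher in 1 embryo than in the other 7. The triangles hold most of the largest values, and none of them is an orange point. DESeq2 by default gives no p to a model with an extreme count in 1 embryo.

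The 2 models with the smallest p in each direction were all low to moderate in level. With the filter on low counts edgeR called none of the 4, and DESeq2 called all 4, with adjusted p of 8.1e-05 for Nv.T1.57355.1, 0.0018 for Nv.T1.40447.1, 0.014 for Nv.T1.7561.1 and 0.013 for Nv.T1.28197.1. Without the filter edgeR called Nv.T1.57355.1 (adjusted p = 0.0017) and Nv.T1.40447.1 (adjusted p = 0.020). Nv.T1.57355.1 had 67.9, 71.1, 73.2 and 92.3 CPM in embryos 33 to 36, against 17.5, 6.18, 22.0 and 5.38 CPM in embryos 29 to 32. The groups did not overlap, and the later embryos lay close together. Its fold change on the log2 scale was 2.56 ± 0.43 (SE, n = 4 against 4, edgeR adjusted p = 0.54), and in fits without 1 of the 8 embryos it lay between 2.31 and 2.94. In embryos outside the comparison it was also higher at 24 to 30 h than at 12 to 18 h, by 2.89 ± 0.71 on the log2 scale (SE, edgeR adjusted p = 0.0043). Its level was uneven within 24 to 30 h, with 572 CPM in embryo 39, 255 CPM in embryo 45 and 192 CPM in embryo 43. In every other embryo of 24 to 30 h it had 24.4 to 63.7 CPM, less than in any of embryos 33 to 36. At 15 to 18 h it stood at 58.6 CPM in embryo 25 and 95.2 CPM in embryo 27, which had 240961 and 56536 gene counts, and at 8.61 and 15.7 CPM in the deeper embryos 26 and 28.

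Nv.T1.40447.1 had 40.3, 76.1, 109 and 60.0 CPM in embryos 33 to 36, against 22.9, 16.7, 16.2 and 21.5 CPM in embryos 29 to 32. All later embryos lay above all earlier ones. Its fold change on the log2 scale was 1.87 ± 0.34 (SE, edgeR adjusted p = 0.54), and 1.61 to 2.06 without 1 embryo. At 24 to 30 h against 12 to 18 h it was higher by 2.30 ± 0.61 on the log2 scale (SE, edgeR adjusted p = 0.0074), although embryo 43 had only 2.75 CPM.

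In the other direction, Nv.T1.7561.1 had 54.1, 43.0, 54.5 and 52.9 CPM in embryos 33 to 36, against 141, 115, 124 and 86.1 CPM in embryos 29 to 32. The groups did not overlap. Its fold change on the log2 scale was -1.20 ± 0.25 (SE, edgeR adjusted p = 0.57), and -1.32 to -1.10 without 1 embryo. Its level did not stay low in every embryo from 24 to 30 h, where it ranged from 46.6 CPM (embryo 42) to 170 CPM (embryo 45). The contrast of 24 to 30 h with 12 to 18 h was -0.93 ± 0.40 (SE, edgeR adjusted p = 0.082) and was not called. Nv.T1.28197.1 had 3, 8, 0 and 1 counts in embryos 33 to 36, against 28, 32, 22 and 35 counts in embryos 29 to 32. The 0 in embryo 35 allows up to 5.60 CPM at 3 counts. Its fold change on the log2 scale was -2.87 ± 0.62 (SE, edgeR adjusted p = 0.57), and at 24 to 30 h it spread from 0 to 25.6 CPM with no common level. Each library is a whole embryo, so fewer cells of a type and less RNA per cell cannot be told apart in any of these values.

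**Figure D2:**
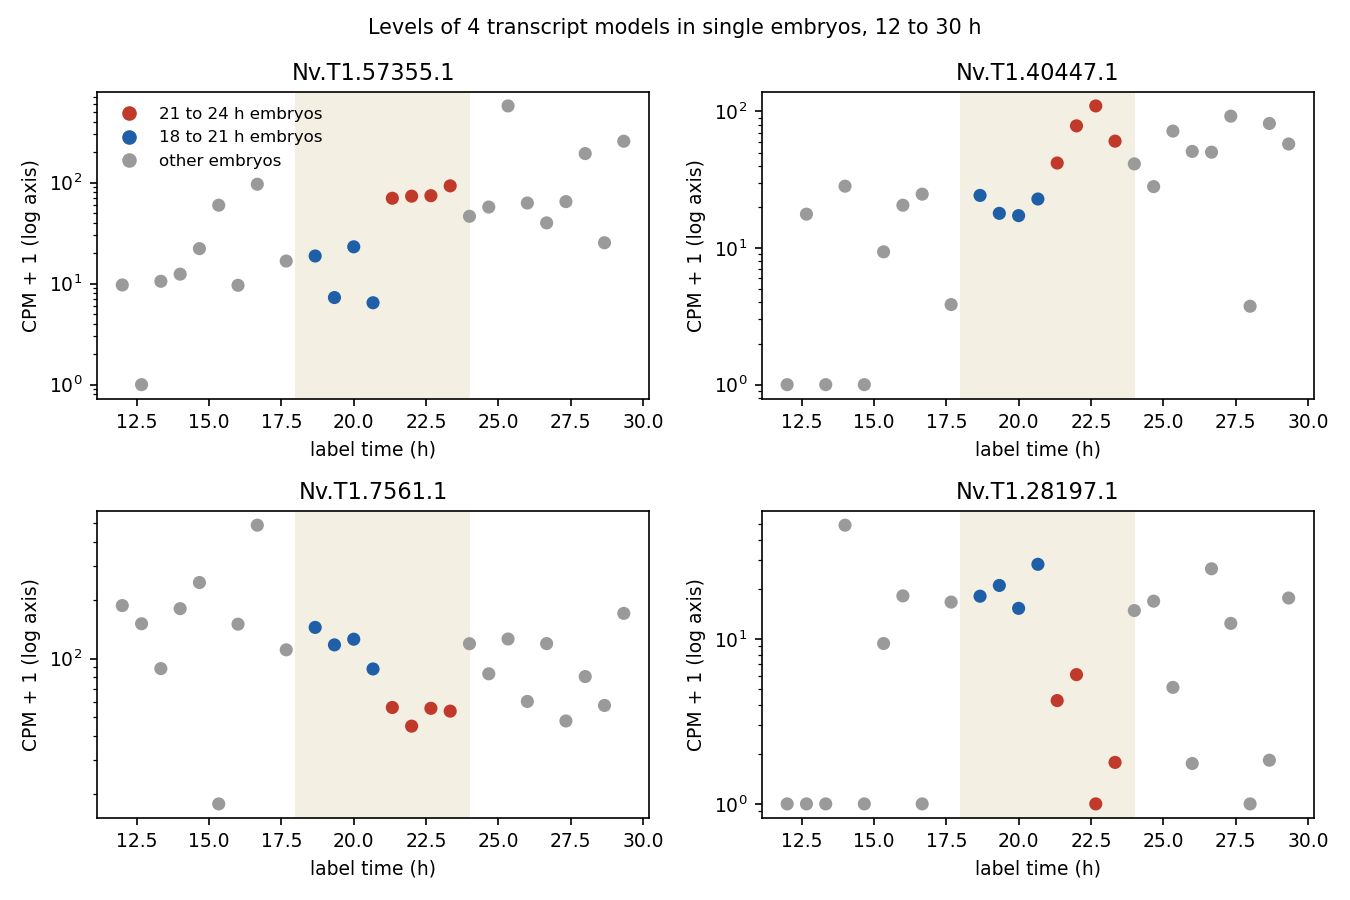
Level of the 4 models, 2 with the smallest p in each direction (CPM + 1, log axis), in 26 single embryos by label time in hours, scaled over those 26 embryos. Red points are the embryos of 21 to 24 h, blue points those of 18 to 21 h, and grey points the 18 others. Inside the shaded 18 to 24 h the 2 colours do not overlap for any of the 4, while the grey points on either side spread widely. The 4 were chosen for the smallest p between these 2 groups, so the lack of overlap is not independent of that choice.

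A change across the window was looked for in models picked from other embryos. At 24 to 30 h against 12 to 18 h, 18 embryos that the comparison does not use, edgeR called 2394 of 10513 models (22.8%), 1416 higher (13.5%) and 978 lower (9.3%). With spike-in scaling the same contrast gave 3616 higher and 66 lower. Of the higher models, 1410 were tested within 18 to 24 h. Their median log2 fold change there was 0.10, with 854 above 0 (60.6%), against 0.02 and 52.0% for all models tested, and against 1.49 between 12 to 18 h and 24 to 30 h. This median was 0.05 without embryo 30 and without embryo 34, 0.14 without embryo 32 and 0.18 without the embryos next to the boundary. With spike-in scaling it was 0.19 (71.6% above 0), against 0.11 and 61.2% for all models. The pooled SD between embryos of the same group, taken over this list, was 0.14. Of the lower models, 947 were tested. Their median was -0.00, with 474 below 0 (50.1%), against -1.37 between the outer windows.

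On a log scale, most of that change lay on the early side of the 8 embryos for the higher models, and less of it did for the lower models. On a scale where 0% is the mean of the 12 to 18 h embryos and 100% the mean of the 24 to 30 h embryos (mean log2(CPM + 1) over the list), the higher models stood at 81.0, 96.2, 67.5 and 84.5% in embryos 33 to 36, against 83.8, 79.9, 86.9 and 93.2% in embryos 29 to 32. The groups overlapped, and the lowest value was that of embryo 35. The 4 embryos of 15 to 18 h stood at -16.2, 37.3, -68.8 and 53.0%, and those of 24 to 30 h between 80.7 and 115%. The scale moves with depth, and embryos 25 and 27, at -16.2 and -68.8%, had only 240961 and 56536 gene counts. The lower models stood at 67.8, 70.9, 89.8 and 49.5% in embryos 33 to 36, against 52.6, 43.3, 66.5 and 71.4% in embryos 29 to 32, again with overlap. For them the 24 to 30 h embryos lay between 82.5 and 116%, so they still separated from the 18 to 24 h embryos except for embryo 35.

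Taken as a share of gene counts, without a log, the higher models held 17.2, 17.5, 16.2 and 16.0% in embryos 33 to 36, against 15.2, 14.8, 15.7 and 16.5% in embryos 29 to 32. Their share was 4.80 to 11.6% in the embryos of 15 to 18 h and 17.7 to 24.0% in those of 24 to 30 h. The lower models held 6.85, 6.39, 7.21 and 7.73% in embryos 33 to 36, against 7.27, 7.48, 6.24 and 5.83% in embryos 29 to 32. Their share was 12.0 to 17.2% in the embryos of 15 to 18 h and 4.32 to 5.53% in those of 24 to 30 h. Without a log, most of the change of the lower models thus also lay on the early side of the 8 embryos. The order of the 2 lists depended on the scale. On both scales the 2 groups within 18 to 24 h overlapped for both lists. The positions of the outer windows are set by the definition of the scale and of the lists.

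**Figure D3:**
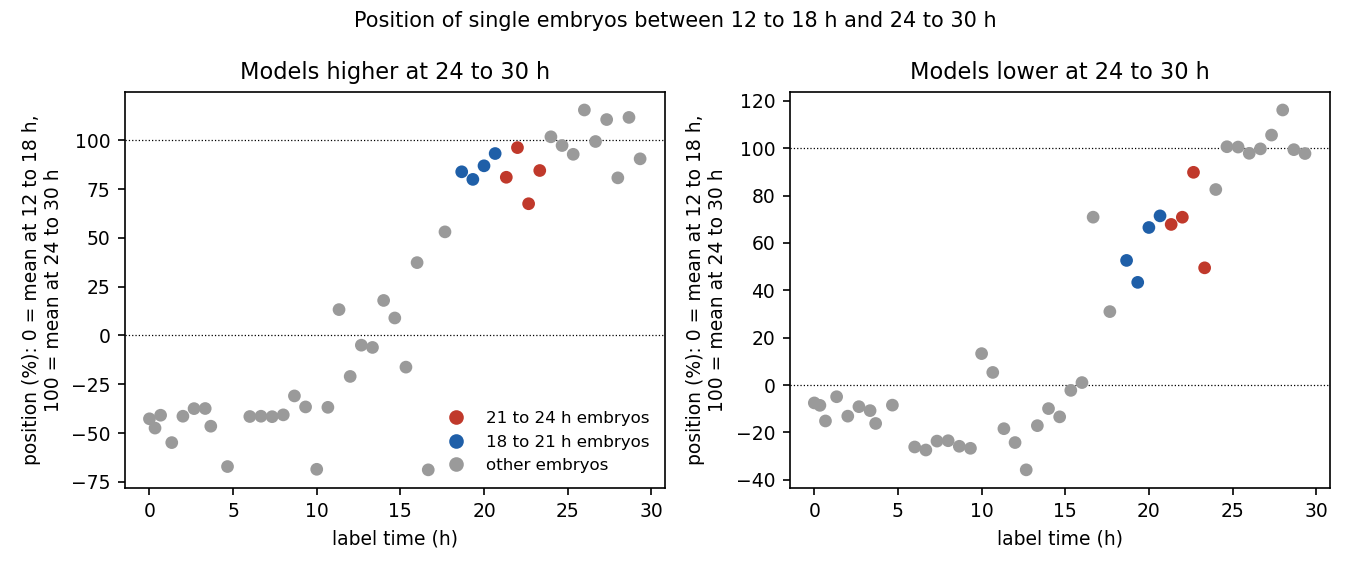
Position of each embryo up to 30 h (points, at least 50000 gene counts) between the mean of 12 to 18 h (0%) and the mean of 24 to 30 h (100%), by label time in hours, for models higher (left) and lower (right) at 24 to 30 h. Red points are embryos of 21 to 24 h and blue points those of 18 to 21 h. For the models higher at 24 to 30 h all 8 coloured points lie between 67.5 and 96.2%, and for both lists the colours overlap.

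The models with an unadjusted p under 0.05 in the step were also looked up in the outer windows, as a description with no test. Of the 464 models higher at 21 to 24 h at an unadjusted p under 0.05, 337 were tested at 24 to 30 h against 12 to 18 h. There 60 (17.8%) were called higher and 56 (16.6%) lower, against 13.5% and 9.09% of the 10422 models tested in both. Of the 322 models lower at 21 to 24 h, 265 were tested, with 18 (6.79%) called higher and 32 (12.1%) lower. The models higher at 21 to 24 h thus had shares above those of all models in both directions, and the models lower at 21 to 24 h had a share below that of all models for higher calls and above it for lower calls.

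The 6 values of each library as a whole were compared with exact two-sided permutation tests, in which the smallest p that 4 against 4 embryos can give is 0.0286. None passed, with an adjusted p of 1.0 for all 6. RNA content, taken as gene counts per ERCC spike-in count, was 4.56, 6.74, 3.53 and 5.26 in embryos 33 to 36, against 4.74, 3.95, 4.90 and 5.30 in embryos 29 to 32. The difference in mean log2 ratio was 0.06 ± 0.22 (SE, exact permutation p = 0.86). The number of models expected at 500000 gene counts was 19898, 19950, 18883 and 19774 in embryos 33 to 36, against 19410, 19933, 19598 and 19565 in embryos 29 to 32 (exact permutation p = 1.0). The 100 most abundant models held 18.8 ± 0.36% of gene counts at 21 to 24 h and 19.3 ± 1.53% at 18 to 21 h (SD, n = 4 each, exact permutation p = 0.57). The stem 63571, under which the table lists 3153 models, held 13.0 ± 0.89% at 21 to 24 h and 12.7 ± 0.59% at 18 to 21 h (exact permutation p = 0.63). The no-feature share was 8.54 ± 0.44% at 21 to 24 h and 16.7 ± 15.0% at 18 to 21 h, a difference of -8.13 percentage points (exact permutation p = 0.29) that was -0.66 without embryo 32 (exact permutation p = 0.57). The unaligned share was 38.2 ± 0.69% at 21 to 24 h and 38.9 ± 5.27% at 18 to 21 h (exact permutation p = 0.89).

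The later embryos resembled each other less than the earlier ones did. Across 12355 models with a mean of at least 10 CPM, Pearson's r of log2(CPM + 1) was 0.728 to 0.829 (median 0.764) between embryos of 21 to 24 h, against 0.850 to 0.875 (median 0.859) between embryos of 18 to 21 h. Pairs that crossed the groups had 0.747 to 0.867 (median 0.815). These 28 pairs share embryos and models, and r moves with depth, so no test is given. Embryo 35 had a mean r of 0.752 with the other 7, and embryo 36 of 0.781. Without these 2 embryos the pair left at 21 to 24 h had 0.829, and pairs across the groups 0.824 to 0.867. The first principal component (26.9% of variance) was led by embryo 35 and the second (20.7%) by embryo 36, and neither separated the 2 groups.

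The largest differences among the 8 embryos belonged to single embryos. In 24 models 1 embryo had at least 100 CPM and at least 10 times the next highest of the 8. Of these, 11 had their maximum at 21 to 24 h and 13 at 18 to 21 h. Embryo 36 held 5 of them, embryos 30 and 31 held 4 each, and embryos 32 and 34 held 3 each. In embryo 32 these models made up 3.86% of gene counts, and in embryo 31 2.29%. Nv.T1.71029.1 had 22834 CPM in embryo 32, with 14.6 CPM the next highest of the 8. Nv.T1.4040.2 had 16508 CPM in embryo 33, with 99.9 CPM the next highest. Both were chosen after their values were seen, as were all values at fixed distances in embryo number that follow.

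The same models were high again in embryos at fixed distances in number. Outside the 8, Nv.T1.71029.1 was highest in embryos 7, 96 and 58, with 60323, 42632 and 9639 CPM, and no other embryo had more than 187 CPM. These embryos lie 25 numbers before, 64 after and 26 after embryo 32. Nv.T1.4040.2 was highest in embryos 8, 97 and 59, at the same 3 distances from embryo 33, with 14900, 8475 and 6870 CPM, and no other embryo had more than 776 CPM. Over the 24 models and 113 other embryos, the embryo 25 numbers before the maximum was among the 3 highest for 17 of 23 models that have one. The embryo 26 numbers after was among them for 15 of 24, and the embryo 64 numbers after for 14 of 24. None of the 105 other distances reached more than 4 models. All available embryos at these distances were the highest for 12 of the 24 models. For 4 models no such embryo was among the 3 highest, and 3 of those 4 had their maximum in embryo 36.

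**Figure D4:**
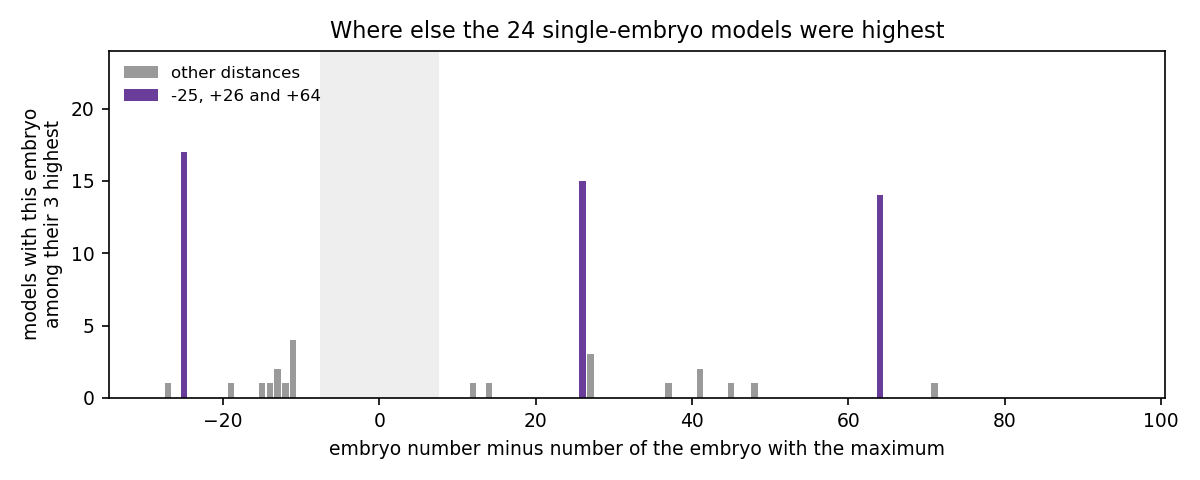
For the 24 models at least 10 times higher in 1 of the 8 embryos than in the other 7, the number of models (vertical axis) whose 3 highest embryos outside the 8 include the embryo at a given distance in number (horizontal axis) from the embryo with the maximum. Purple bars mark -25, +26 and +64, with 17, 15 and 14 models. Grey bars are other distances, with at most 4, and the grey band covers the distances within the 8.

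The embryos at these distances differ widely in label time. Embryos 4 to 11 were labelled 1.33 to 6.0 h, embryos 55 to 62 were labelled 35.3 to 40.0 h, and embryos 93 to 100 were labelled 54.7 to 59.3 h, where label time falls as the number rises. The share of counts assigned to no feature followed the same distances. It was highest of all embryos in embryos 7, 32, 96 and 58, at 43.1, 39.1, 36.8 and 32.1%, against a median of 10.0%. The labels' protocol names multiplexing barcodes without saying which embryo received which, and the part of the barcode in these values was not tested.

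The 21 models called by DESeq2 were set against the same numbers, since the later embryos of 18 to 24 h also hold the higher numbers. In each of them the 4 later embryos did not overlap with the 4 earlier ones, and none was among the 24 single-embryo models. Neither trait is a finding about the 21, which were called on these same 8 embryos. By default DESeq2 also gives no p to a model with an extreme count in 1 embryo. Of the 18 called higher at 21 to 24 h, 11 of the 14 tested had a positive difference between embryos 8, 9 and 11 and embryos 4 to 7 (78.6%). For embryos 59 to 62 against 55 to 58 the count was 14 of 17 (82.4%), and for embryos 97 to 100 against 93 to 96 it was 12 of 15 (80.0%). Over all models tested in the step, 54.2, 56.6 and 53.0% kept the sign of their step in those 3 sets, and over the 786 with an unadjusted p under 0.05 in the step 62.9, 72.3 and 66.1% did. Of the 11 tested in all 3 sets, 8 kept it in all (72.7%), against 36.9% of the models with an unadjusted p under 0.05 and 20.2% of all models. Of the 3 called lower, 1 of 3 kept its sign in embryos 59 to 62 and 0 of 2 in either of the other sets. Within those 3 sets alone edgeR called 0 of 11205, 0 of 10373 and 0 of 12921 models (0% each), with 565, 782 and 432 at an unadjusted p under 0.05. These contrasts share no embryo with the 8.

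Fitting the position in number as a term over all 31 embryos gave 0 of 18495 models called (0%) by edgeR, with 377 at an unadjusted p under 0.05. Under this fit the 2 models with the smallest p in each direction of the step kept their sign. Nv.T1.57355.1 was at 2.76 ± 0.72, Nv.T1.40447.1 at 1.45 ± 0.65, Nv.T1.7561.1 at -1.40 ± 0.44 and Nv.T1.28197.1 at -3.53 ± 1.48 (log2, SE, edgeR adjusted p = 1 for each). Nv.T1.57355.1 had the smallest unadjusted p of all models, 0.00048. Its differences at the other numbers were 1.08 ± 0.42 for embryos 59 to 62 and -0.57 ± 0.60 for embryos 97 to 100 (SE). For embryos 8, 9 and 11 it was not tested. All 21 models called by DESeq2 kept their sign, as did 90.3% of the models with an unadjusted p under 0.05 in the step and 71.4% of all models. The fit contains the 8 embryos on which they were called, so their sign is not independent of that choice. In this fit 7 of the 18 higher (38.9%) and all 3 lower had an unadjusted p under 0.05 with the same sign. Of the models with an unadjusted p under 0.05 in the step 11.7% did, and of all models 1.58%. These shares are not independent of that choice either. Many of the higher ones were smaller, as Nv.T1.7596.1, singled out because it was called without embryo 33. It had 77.4, 724, 361 and 819 CPM in embryos 33 to 36, against 71.6, 44.5, 73.1 and 43.0 CPM in embryos 29 to 32. Embryo 33 lay just above the earlier embryos and the other 3 far above. Its step was 3.09 ± 0.58 (SE, edgeR adjusted p = 0.54), and 3.44 ± 0.35 without embryo 33 (edgeR adjusted p = 0.013). Its differences at the other numbers were 2.23 ± 0.58, 1.35 ± 0.46 and 2.28 ± 0.36 for embryos 8, 9 and 11, 59 to 62 and 97 to 100 (SE), and its step net of number position was 0.77 ± 0.46 (SE). Whether position in number is the source of its step was not tested.

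**Figure D5:**
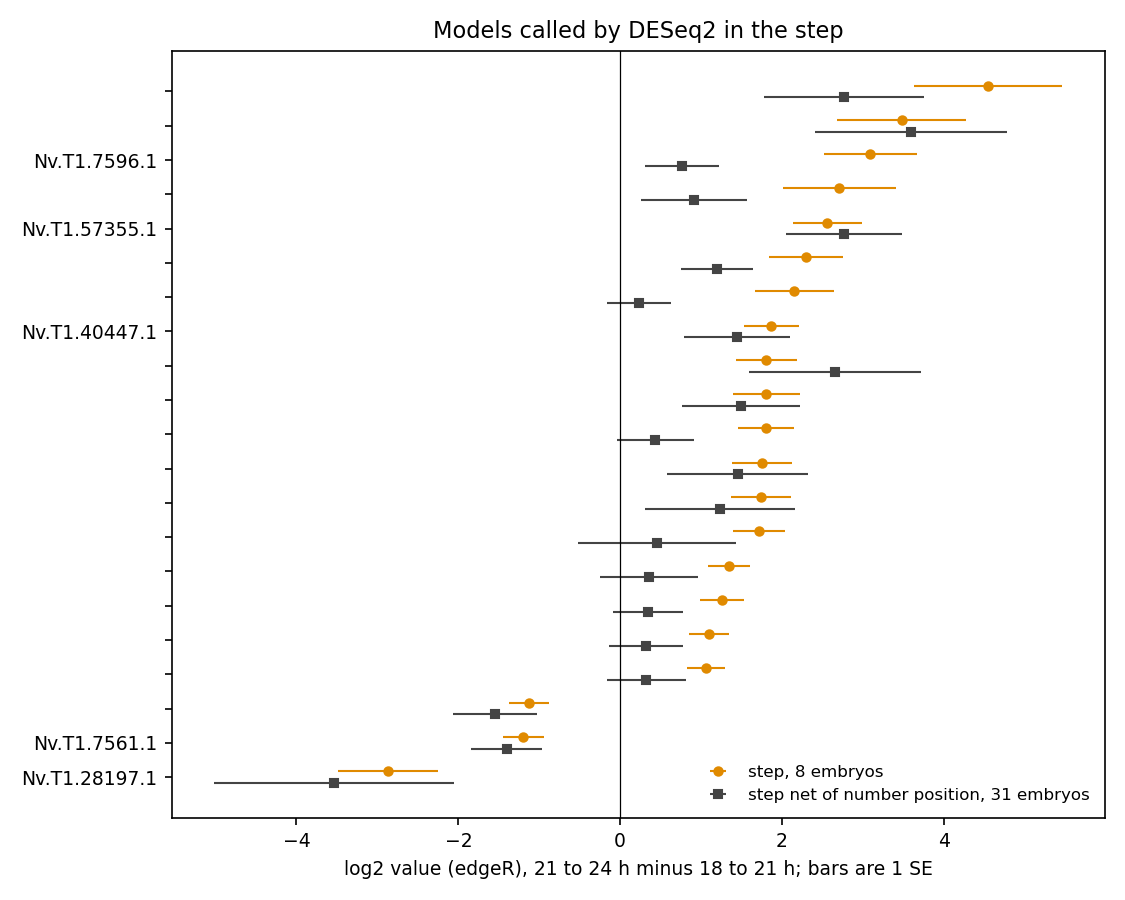
EdgeR log2 values (horizontal axis, bars 1 SE) of the 21 models called by DESeq2, 1 row each, as the step over the 8 embryos (orange circles) and net of number position over 31 embryos (grey squares). Rows are labelled for the models described in the text. Nv.T1.57355.1, at 2.56 and 2.76, keeps its size, while Nv.T1.7596.1 is at 3.09 over the 8 embryos and 0.77 net of position.

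The step was then compared with the steps on either side that share no embryo with it. Between 27 to 30 h and 24 to 27 h edgeR called 1 of 13506 models (0.0074%), and between 15 to 18 h and 12 to 15 h 0 of 10134 (0%), with 507 at an unadjusted p under 0.05. The difference between the step within 18 to 24 h and the next one, within 24 to 30 h, had 0 calls among 15922 models (0%) in edgeR, 433 at an unadjusted p under 0.05, and 5 calls in DESeq2. Nv.T1.7596.1 and Nv.T1.60751.1 led on the positive side, with differences of 3.77 ± 0.84 (log2, SE, edgeR adjusted p = 0.24) and 5.37 ± 1.34 (edgeR adjusted p = 0.40). Nv.T1.7596.1 passed the threshold without the filter on low counts (edgeR adjusted p = 7.0e-05) and in DESeq2 (adjusted p = 0.016). Nv.T1.60751.1 passed it in no setting. Nv.T1.12685.1 and Nv.T1.658.1 led on the negative side, with -12.19 ± 2.24 and -6.32 ± 1.21 (SE, edgeR adjusted p = 0.074 for both). Nv.T1.12685.1 had 7070 CPM in embryo 30 and 6493 CPM in embryo 44, and at most 49.0 CPM in the other 24 embryos of 12 to 30 h. Its difference was -5.93 without embryo 30 (edgeR adjusted p = 0.57) and -6.33 without embryo 44 (edgeR adjusted p = 0.60), and it passed the threshold without embryo 29, 31, 32, 42, 43 or 45, with spike-in scaling and without the filter on low counts. Net of number position its step was 0.13 ± 0.46 (SE), against -6.01 ± 1.82 over the 8 embryos. In Nv.T1.658.1 the highest value was 3059 CPM in embryo 42 alone, and its difference was -3.07 without that embryo (edgeR adjusted p = 0.49). It passed the threshold without embryo 29, 31, 43 or 45, without the filter on low counts and in DESeq2.

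Against the previous step, within 12 to 18 h, 24 of 15922 models (0.151%) differed, 12 with a higher and 12 with a lower step at 18 to 24 h. The log2 step within 18 to 24 h itself was 0.99 to 6.21 for the higher ones, where tested. For the lower ones it was -9.31 to 0.52. It was 0.21 for Nv.T1.11206.1, 0.27 for Nv.T1.47988.1 and 0.32 for Nv.T1.62851.1, against differences of -7.68, -7.93 and -8.52. In these 3, and in every other lower one except Nv.T1.71029.1, the difference thus lay mostly in the step within 12 to 18 h. For Nv.T1.71029.1 the step was -9.31 against a difference of -10.77. Among the higher ones the split varied, with a step of 1.87 against a difference of 6.62 in Nv.T1.12632.3 and 5.78 against 7.43 in Nv.T1.6098.1. Without embryos 27, 28 and 32 the number of differing models was 0, with 1306 at an unadjusted p under 0.05, and with spike-in scaling 11 higher and 4 lower. Leaving out embryo 28 alone gave 5, embryo 32 7, embryos 21 or 34 9 each, and embryos 22, 26 or 36 13 each. DESeq2 called 88. Embryo 27 had 56536 gene counts, and in embryo 28 58.7% of all counts were unaligned. Among the models with a higher step, Nv.T1.7335.1 differed by 8.70 ± 1.81 on the log2 scale (SE, edgeR adjusted p = 0.038), and by 3.38 without embryo 34 (edgeR adjusted p = 0.43). It also missed the threshold without embryo 23, 25, 26, 27, 28, 29, 30, 31 or 32, with adjusted p of 0.051 to 0.13. Embryo 34 had 2105 CPM, and the 7 others of 18 to 24 h 5.51 to 19.4 CPM. Nv.T1.7596.1 differed by 6.74 ± 0.90 (SE, edgeR adjusted p = 0.00040). At 12 to 15 h it had 259, 904, 592, 1791 and 204 CPM, and at 15 to 18 h 83.8, 28.2, 71.4 and 64.3 CPM, so it also differed in the opposite direction within the earlier window.

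Among the models with a lower step, Nv.T1.51297.1 differed by -7.85 ± 1.43 (SE, edgeR adjusted p = 0.027), and by -6.79 with spike-in scaling (edgeR adjusted p = 0.10). It had 0 counts in all 5 embryos of 12 to 15 h, and within 18 to 24 h it had 6, 11, 0 and 3 counts in embryos 33 to 36, against 18, 15, 22 and 9 in embryos 29 to 32. Its step over the 8 was -1.25 ± 0.62 (SE, edgeR adjusted p = 0.89). Nv.T1.1483.1 differed by -6.15 ± 1.22 (SE, edgeR adjusted p = 0.032). The difference was -5.21 without embryo 32 (edgeR adjusted p = 0.11) and -5.30 without embryo 28 (edgeR adjusted p = 0.10), and it also missed the threshold without embryo 21, 22, 26, 34, 35 or 36, with adjusted p of 0.051 to 0.086. The model had 115, 99.0, 88.1 and 69.0 CPM in embryos 33 to 36, against 124, 203, 129 and 744 CPM in embryos 29 to 32. Its highest values in 12 to 30 h were 3340 CPM in embryo 28, 2227 CPM in embryo 40 and 1961 CPM in embryo 26. Net of number position the steps of Nv.T1.7335.1 and Nv.T1.1483.1 were 0.62 ± 0.78 and 0.34 ± 0.50 (log2, SE).

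Models present in all embryos of 1 group and in none of the other were few and low. Of 40499 models, 10 had counts in all 4 embryos of 21 to 24 h and none at 18 to 21 h, at 1.11 to 4.23 CPM over the pooled later embryos. In the opposite direction 38 models had counts in all 4 embryos of 18 to 21 h and none at 21 to 24 h. A pooled count of 0 allows up to 0.668 CPM at 21 to 24 h and up to 0.477 CPM at 18 to 21 h. None of the 48 passed the filter on low counts, and pooled depth was lower at 21 to 24 h, so their number in each direction is not a measure of change.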

How the data were processed

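RNA was measured in 123 single embryos. The deposited table gives whole-number, unnormalized counts in each embryo for 40499 transcript models, 92 ERCC spike-ins and 5 unassigned classes. The submitters' processing notes name HTSeq 0.5.4p3, Bowtie2 2.1.0 and CASAVA 1.8, and the genome build and annotation are not given in the sources used here. Per the labels' protocols, DSN, which lowers the share of abundant molecules, was applied to the libraries, and no count of distinct molecules is given, so limits set from a count of 0 cover counting error only, while intervals of fold changes cover the spread between embryos. Neither the unassigned classes (no feature and unaligned) nor the spike-ins were tested as models or entered library sizes, except the spike-ins under spike-in scaling. The no-feature share, the unaligned share and gene counts per spike-in count were tested as values of each library.

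The step was fitted in edgeR 4.0.16 (R 4.3.3) on the deposited counts with TMM scaling, filterByExpr and the quasi-likelihood F test. Calls needed an adjusted p under 0.05 (Benjamini-Hochberg) and a log2 fold change of 1 or more in size. Standard errors were log2 fold changes over the square root of F. Alternatives used DESeq2 1.42.0, limma 3.58.1 (voom), other scalings and filters, and each embryo left out. The scripts were tested on simulated data. Embryos under 50000 gene counts were not used. Embryos, lists and tests were chosen with earlier results of these data known, and the fit of position in embryo number was added after the data were seen. For the step, the named models were to be the 2 per direction with the largest fold change among those called in every fit without 1 embryo. None was called, so those with the smallest p were taken. For a difference between steps they are the 2 largest called per direction with at least 10 CPM and no overlap between the groups of the step, or, where none was called, those with the smallest p. No identifier matched the 38762 genes of the reference table, and the planned gene lists were not used. Models of 1 identifier stem may share reads. At the median depth of the 8 embryos, 3 counts are 2.04 CPM.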

Additional observations from a re-analysis of the deposited data

Results flagged for a closer look

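Among 34 groups of 4 embryos looked at, 7 held 1 embryo far from the other 3 relative to the range of the group, where the critical value used is passed by about 1 in 20 groups by chance. That share does not apply to the models, which were named for large differences that 1 embryo can drive. At 21 to 24 h, embryo 35 had 18883 models at equal depth, below the other 3, and it was the shallowest library. Embryo 34 had the lowest level of Nv.T1.7561.1, 43.0 CPM, in a group that spanned little, and by far the highest of Nv.T1.7335.1, 2105 CPM. At 18 to 21 h, embryo 32 had 39.1% of counts assigned to no feature and 744 CPM of Nv.T1.1483.1. Embryo 30 had 7070 CPM of Nv.T1.12685.1, and embryo 31 had 6.51 CPM of Nv.T1.60751.1, a low value from 10 counts. The values of embryos 30 and 34 for Nv.T1.12685.1 and Nv.T1.7335.1 and the no-feature share of embryo 32 stand beside high values at the same distances in embryo number.

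Between the step within 18 to 24 h and the step within 12 to 18 h, 24 models differed in a test of the difference itself. The count was 0 without embryos 27, 28 and 32.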

How the results depend on the processing

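No paired analysis was possible because the labels give no replicate numbers. The count of 0 calls in the step was also found with median-ratio and spike-in scaling, a stricter filter, counts summed per stem, voom, 1 fit over 12 to 30 h, no embryos next to the boundary, no fold threshold and number position as a term. It was 36 without a filter, 21 with DESeq2 and 0 to 1 without 1 embryo. The label time slope had 1 call without a filter. Spike-in scaling put the median step of all models at 0.11. The difference from the step within 24 to 30 h had 1 call with spike-in scaling, 63 without a filter, 5 with DESeq2 and 0 to 6 without 1 embryo. The difference from the step within 12 to 18 h had 15, 224 and 88 calls under these settings, 0 without embryos 27, 28 and 32, and 5 to 30 without 1 embryo. The contrast of 24 to 30 h with 12 to 18 h had 3682 calls with spike-in scaling and 4143 without a filter. The library values turned sign in some settings: without 1 embryo, gene counts per spike-in count ran from -0.10 to 0.21 (log2), models at equal depth from -108 to 247, the unaligned share from -2.17 to 1.66, the share of the 100 most abundant models from -0.96 to 0.11 and that of the stem from -0.091 to 0.60 percentage points. Models with at least 3 expected counts differed by 256. The cause was not tested. Depth limits embryo 35 most, where 3 counts are 5.60 CPM. With 4 embryos a group, the 95% interval reached a 2-fold change for most models under 100 CPM.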
